A study of Homo sapiens with 2 samples.

Results

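The Hedgehog ligand, its receptors and the GLI transcription factors were examined in SAS cells and in eSAS cells selected from them. The 9 genes, SHH, PTCH1, SMO, SUFU, GLI1, GLI2, GLI3, HHIP and DISP1, were chosen by name, when earlier results of these data were known. They were read by 13 probes, out of 30484 gene names and 41000 probes on the array. Of the 9 genes, 6 had 1 probe each, GLI2 and HHIP had 2 each and SUFU had 3.

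Hedgehog proteins are secreted signals that pattern embryonic tissue and that many carcinomas reuse. In the absence of ligand, the receptor Patched (PTCH1) keeps the membrane protein Smoothened (SMO) inactive, and SUFU holds the GLI factors in the cytoplasm, where GLI3 in particular is cut into a repressor of transcription. When ligand binds Patched, Smoothened enters the primary cilium, the GLI factors are released from SUFU, and GLI2 acts as the main first activator. GLI1, PTCH1 and HHIP are classical target genes of the pathway, so that their mRNA is commonly used to read its output.

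SAS is a cell line from a human tongue squamous cell carcinoma. eSAS is the population that remained after 5 rounds in which large spheroids of SAS cells were caught on the mesh of a sieve called Spheroid Catch. Both were grown in the same medium with serum, and no transgene or drug is named for either. Total RNA of each was labelled with Cy3 and hybridised to a 1-colour oligonucleotide microarray, 1 array for each population, and populations from earlier rounds were not analysed here. eSAS is thus 1 selected population. Without a replicate array no test between the populations could be made, no p-value is given, and the spread between cultures is unknown. Whether a difference is a lower level in every cell or a different share of cells with the transcript cannot be told from RNA of a whole culture.

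The signal is a brightness in arbitrary units after background subtraction. The error given after a signal (±) is the scanner software's own estimate for that spot on that array. Ratios are eSAS over SAS on the log2 scale, after each signal was divided by the 75th percentile of its array, which was 1242 for SAS and 1196 for eSAS. A spot counted as well above background by the software's criterion, which 69.4% of the SAS spots and 67.5% of the eSAS spots met, and none was saturated. Spots of 1 probe printed several times differed in their log2 ratio with an SD of 0.137 over 211 probes. This SD was 0.263 for signals under 40 (10 probes), 0.224 from 40 to 100 (12 probes), 0.144 from 100 to 1000 (55 probes) and 0.109 above 1000 (134 probes). It covers technical error within these arrays only. The software marked none of the 13 spots as uneven or as an outlier on either array. All 10 squamous epithelium markers were detected on both arrays, among them KRT5, a keratin of the basal layer, with 22037 in SAS and 13677 in eSAS, and EPCAM, an epithelial adhesion molecule, with 40809 and 40413. Of the 11 squamous probes 9 had a ratio below 0, with a median log2 ratio of -0.46, beside -0.0023 over all probes.

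The regulatory sequence in front of 3 of the genes is shown because PTCH1 and HHIP are known targets of the GLI factors and GLI2 gave the lowest ratios. Each is the 250 bases upstream of a RefSeq transcript start in GRCh38.p14, 5′ to 3′ along the gene's strand. The GLI consensus GACCACCCA was searched on both strands and is in capitals where present.

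PTCH1: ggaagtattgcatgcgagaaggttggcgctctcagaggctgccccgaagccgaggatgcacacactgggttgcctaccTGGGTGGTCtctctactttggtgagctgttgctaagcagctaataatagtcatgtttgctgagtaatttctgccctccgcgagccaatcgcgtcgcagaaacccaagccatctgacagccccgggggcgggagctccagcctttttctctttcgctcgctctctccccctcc

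GLI2: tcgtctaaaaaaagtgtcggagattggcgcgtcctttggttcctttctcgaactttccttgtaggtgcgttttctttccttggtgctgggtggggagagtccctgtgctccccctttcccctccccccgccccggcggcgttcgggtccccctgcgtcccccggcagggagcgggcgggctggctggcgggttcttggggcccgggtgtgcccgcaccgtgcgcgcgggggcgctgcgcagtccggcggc

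HHIP: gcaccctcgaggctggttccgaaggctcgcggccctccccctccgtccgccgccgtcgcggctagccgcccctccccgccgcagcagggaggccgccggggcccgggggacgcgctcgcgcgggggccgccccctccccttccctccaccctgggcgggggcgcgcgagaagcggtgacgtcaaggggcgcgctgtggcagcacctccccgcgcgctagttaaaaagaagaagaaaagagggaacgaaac

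The PTCH1 stretch lies on the minus strand at chr9:95509267-95509516, the GLI2 stretch on the plus strand at chr2:120735618-120735867 and the HHIP stretch on the plus strand at chr4:144645906-144646155. In PTCH1 the consensus stands on the opposite strand, where it reads TGGGTGGTC, and ends 163 bases before the transcript start. It was found in 1 of the 15 windows of the 7 genes with a window, and in 70 of 35116 windows of all genes (0.199%). PTCH1 and GLI2 also had windows at other transcript starts, which are not shown. Of the PTCH1 windows, only the one shown held the consensus. A match of letters is a description of the sequence. GLI1 and GLI3 had no window.

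To examine the sending side, SHH and DISP1 were read first. SHH encodes the ligand Sonic hedgehog, and its probe (NM_000193, hg18 chr7:155288662-155288721) had a signal of 19.1 ± 4.04 in SAS and 15.9 ± 4.40 in eSAS. It was well above background in SAS and not in eSAS. The 2 signals overlap within their errors, so that no fold is given, and SHH mRNA was at the detection limit in both populations. DISP1 encodes Dispatched, the membrane protein that releases the lipid-modified ligand from the cell. Its probe (NM_032890, chr1:221245734-221245793) gave 62.1 ± 6.98 in SAS and 79.4 ± 8.74 in eSAS, 1.33-fold higher in eSAS (log2 0.41, software error 0.23).

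Of the other ligands, DHH (Desert hedgehog) had 137 in SAS and 103 in eSAS (log2 -0.35), and no probe carried the name IHH. HHAT, the acyltransferase that attaches palmitate to the ligand, had 388 in SAS and 105132 in eSAS, a 282-fold difference, on a single spot that the software marked as non-uniform. The log2 ratio was 8.14, and 7.97 without background correction. With normexp, a correction that models the local background, fitted on all spots it was -0.11, and 2 settings that leave out spots with a marked local background left out this spot. The signal of SHH, the substrate of HHAT, was at the detection limit in both populations, so that no direction is read from it.

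To examine the receiving side, PTCH1, HHIP and SMO were compared. The PTCH1 probe (NM_000264, chr9:97247269-97247328) gave 14.5 ± 3.69 in SAS and 14.2 ± 4.11 in eSAS, well above background on neither array, so that no fold is given. A further probe, which the array describes as a Patched 1 protein but lists under a transcript identifier (ENST00000375284, chr9:97245950-97246009), lies outside the choice of genes and was added after its values were seen. It gave 110 ± 11.4 in SAS and 81.8 ± 8.91 in eSAS, well above background on both (log2 -0.37, software error 0.22). Transcript from the PTCH1 locus was thus seen by 1 of 2 probes, with a lower signal in eSAS by less than 2-fold.

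SMO is the transducer that Patched holds inactive. Its signal (NM_005631, chr7:128640473-128640532) was 3084 ± 308 in SAS and 2346 ± 235 in eSAS, 1.27-fold lower in eSAS (log2 -0.34, software error 0.20). At this brightness the SD of repeated spots was 0.109.

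HHIP encodes a membrane decoy that binds the ligand and so limits signalling. Its probe for AK074711 (chr4:145800615-145800674) gave 2.96 ± 2.95 in SAS, not well above background, and 40.9 ± 5.38 in eSAS, well above it. eSAS was at least 3.31-fold higher (log2 at least 1.73), taking SAS at 12.8, the lowest signal of any spot well above background there. The probe for the reference transcript NM_022475 (chr4:145878379-145878438), which starts 77764 bases further on, gave 3.53 in SAS and 4.08 in eSAS and was well above background on neither array. The higher signal was seen by 1 of 2 HHIP probes, and its bound depended on the background. It was under 2-fold without correction (log2 at least 0.62) and with the 2 normexp settings without marked local backgrounds (0.46 and 0.58). With normexp fitted on all spots the log2 bound was 3.06. The first 3 of these settings keep or add brightness on both arrays (an offset of 50 for normexp). This shrinks ratios of dim probes, so that a bound under 2-fold there cannot decide whether the higher signal holds.

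**Figure D1:**
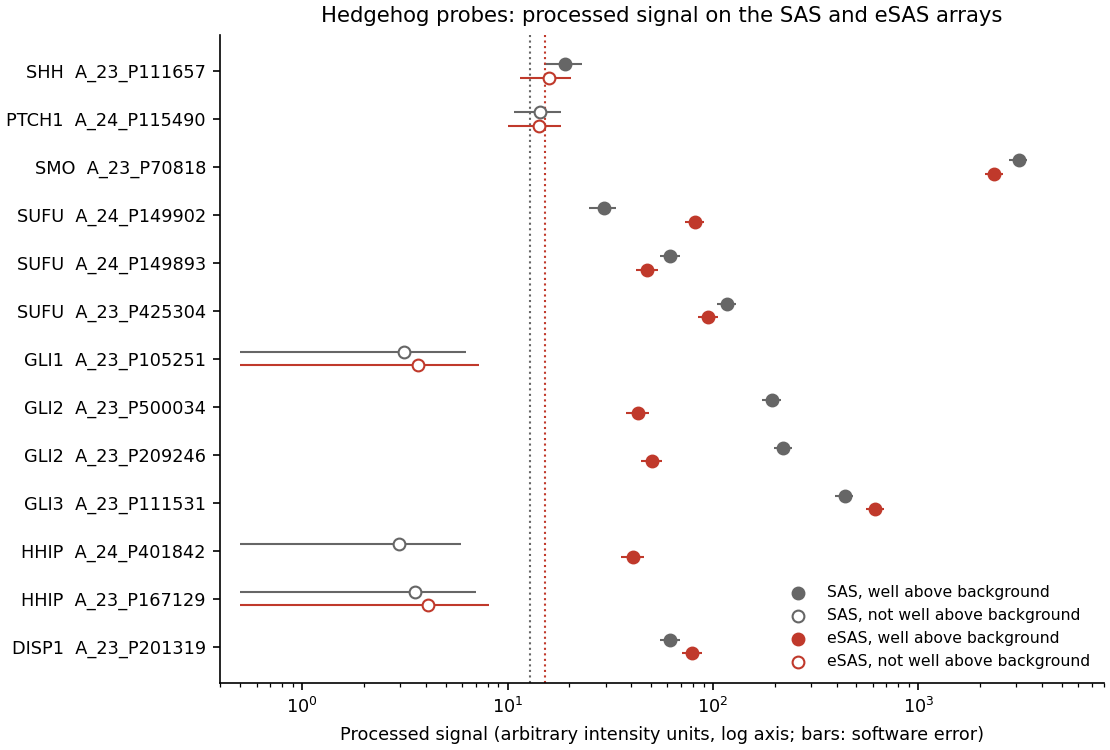
Processed signal (arbitrary units, log axis) of the 13 probes on the SAS array (grey) and the eSAS array (red). Bars are the software's error, with lower ends stopped at the axis for the dimmest spots, open points are not well above background, and dotted lines mark the lowest signal well above background on each array (12.8 and 15.2). Both GLI2 probes are lower in eSAS, GLI3 is higher, and SHH and PTCH1 lie at the detection limit.

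SUFU, the cytoplasmic inhibitor of the GLI factors, was read by 3 probes for NM_016169, and these disagreed. The most upstream (A_24_P149902, chr10:104342443-104343413, a span of 971 bases) gave 29.4 ± 4.37 in SAS and 81.8 ± 9.00 in eSAS, 2.89-fold higher (log2 1.53, software error 0.27). The next (A_24_P149893, chr10:104367064-104367123) gave 62.1 ± 6.87 in SAS and 48.0 ± 5.91 in eSAS, a log2 ratio of -0.32. The third (A_23_P425304, chr10:104383018-104383077) gave 117 ± 12.1 in SAS and 95.1 ± 10.3 in eSAS, a log2 ratio of -0.24.

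The 3 ratios of SUFU spanned 1.85 on the log2 scale, several times the software error of each. Of 5394 genes with at least 2 probes that both arrays detected above background, 23 (0.426%) had probes as far apart. On the eSAS array the pixels of the first SUFU spot were the most uneven of all 13 spots (SD over mean 0.334, the lowest being 0.110), and the part of this in the ratio was not tested. The ratio of that probe was under 2-fold without background correction (0.79) and with the 2 normexp settings without marked local backgrounds (0.72 and 0.65). It was 2.85 with normexp fitted on all spots. The first 3 of these settings shrink ratios of dim probes, as for HHIP. No common direction can be given for SUFU.

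GLI2 gave the lowest ratios of the 9 genes, and it did so on both of its probes. The first (A_23_P500034, NM_005270, chr2:121465057-121465116) had 194 ± 19.6 in SAS and 43.4 ± 5.61 in eSAS, 4.31-fold lower (log2 -2.11, software error 0.24). The second (A_23_P209246, chr2:121466146-121466205), 1089 bases further on, had 219 ± 22.1 in SAS and 50.6 ± 5.91 in eSAS, 4.17-fold lower (log2 -2.06, software error 0.22). The probes differed from each other by 0.045 on the log2 scale and their mean was -2.08. They were printed far apart on the slide, in row 174, column 68 and in row 261, column 48. Each exceeded background clearly in SAS and in eSAS, so that GLI2 mRNA was lower but still detected in eSAS.

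Among the 26841 probes that passed the background criterion on both arrays, 48 (0.179%) were at least 4-fold lower in eSAS, and 43 were at or below the higher of the GLI2 ratios. Of the 5394 genes with at least 2 such probes, 4 (0.0742%) had every probe at least 4-fold lower. Elsewhere the line was 2-fold, and 4-fold lies just under the GLI2 folds (4.31 and 4.17). The place of GLI2 among these 4 genes thus follows from the cut and is no test. The other genes, named after their values were seen, were MAOB, a mitochondrial amine oxidase (-2.40 and -2.26), PDPN, the membrane glycoprotein podoplanin (-2.08 and -2.06), and TMEPAI, the older name of PMEPA1, which is induced by and limits TGF-beta signalling (-2.71 and -2.67).

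The size of the GLI2 difference depended on the background. Without subtraction the ratios were -1.33 and -1.43, and with the normexp correction (an offset of 50) they were -1.23 and -1.32, still more than 2-fold lower. The brightness that these settings keep or add on both arrays by itself shrinks the ratios of dim probes. Where normexp was fitted on all spots, including 26 with a local background marked as uneven, the ratios turned to 1.31 and 1.01. That setting moved the median of all probes from -0.0023 to 0.53, and that of the 6135 probes with a SAS signal from 100 to 400 to 1.42. Relative to the latter, GLI2 stood at -0.12 and -0.41, in place of -2.10 and -2.06.

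The other GLI genes differed from GLI2 in their values. GLI3, whose product acts mainly as a repressor in the absence of ligand, had 437 ± 43.9 in SAS and 616 ± 61.7 in eSAS (NM_000168, chr7:41970236-41970295), 1.46-fold higher (log2 0.55, software error 0.20). The ratios of GLI3 and of GLI2 (mean of its probes) lay 2.63 apart on the log2 scale. GLI1, the factor that the pathway itself induces, had 3.13 in SAS and 3.65 in eSAS (NM_005269, chr12:56152238-56152297) and was well above background on neither array. Of the 3 GLI genes, 1 was thus lower in eSAS, 1 higher by less than 2-fold and 1 not measurable.

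**Figure D2:**
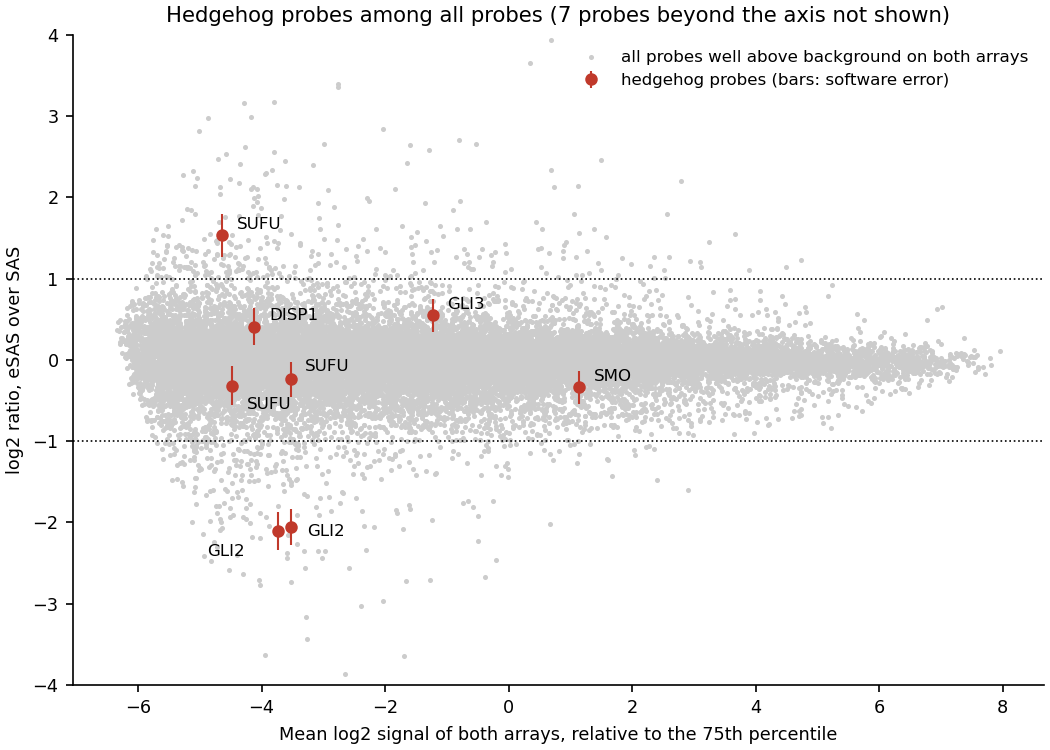
Log2 ratio (eSAS over SAS) against the mean log2 signal of both arrays relative to the 75th percentile, for the 26841 probes that both arrays detected above background (grey) and the 8 Hedgehog probes among them (red, bars are the software error). Dotted lines mark 2-fold, and 7 probes beyond 4 on the log2 axis are not drawn. Both GLI2 probes lie near -2.1, below the main cloud, while SMO, GLI3, DISP1 and 2 of the SUFU probes lie within 2-fold.

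Counted together, 10 of the 13 probes passed the background criterion on at least 1 array, 8 on both (of SMO, SUFU, GLI2, GLI3 and DISP1) and 3 on neither. At least 2-fold higher in eSAS were 2 of the 10, of SUFU and HHIP, where 2.08% of 28625 probes were. At least 2-fold lower were 2 of the 10, both of GLI2, where 1.96% were. The HHIP probe passed only through eSAS, where it is higher, and its fold is a bound. Of the 8 probes that passed on both arrays, 1 was higher, of SUFU, and 2 lower. Of all probes that passed on both arrays, 97.6% lay within 2-fold. The median log2 ratio of the 8 probes was -0.28 with an SD of 1.25 over probes, 3 above 0 and 5 below, beside a median of -0.0023 and an SD of 0.379 over all 26841. With 10 probes of 7 genes, these shares describe these genes on these arrays, and probes of 1 gene are not independent.

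**Figure D3:**
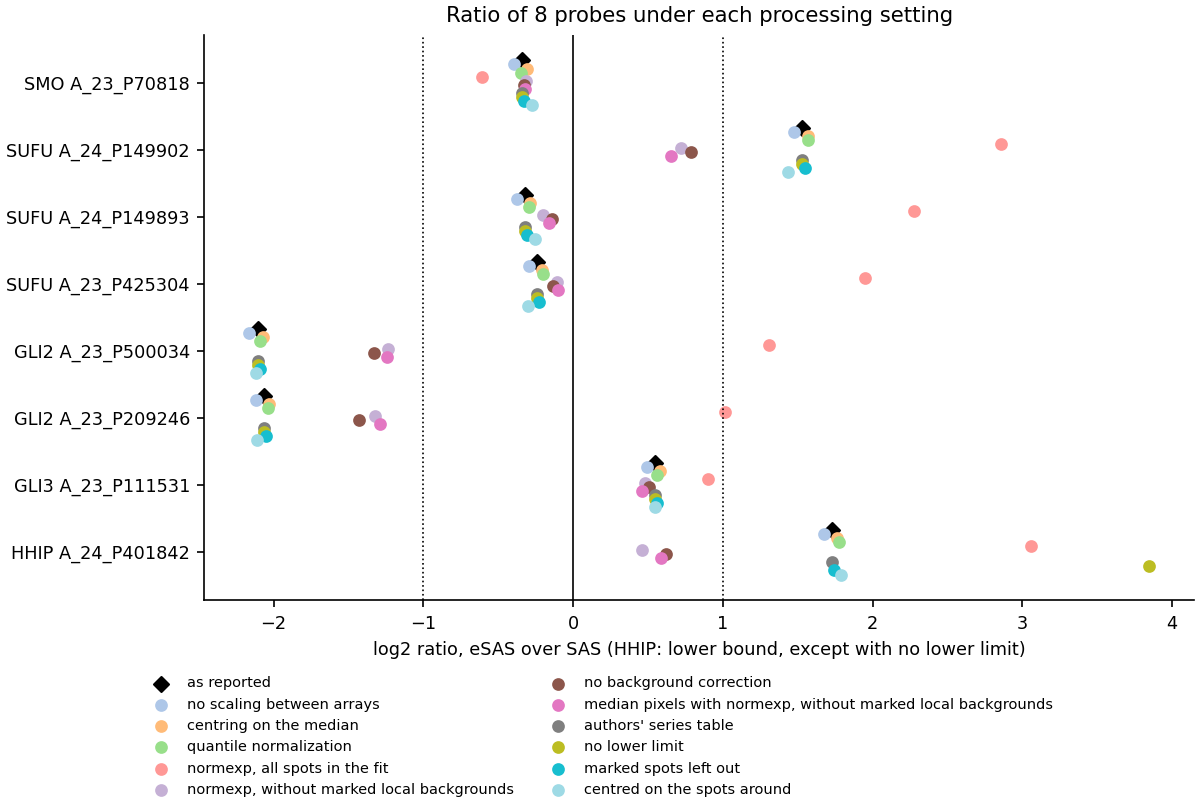
Log2 ratio (eSAS over SAS) of 8 probes as reported (black diamonds) and under each other processing (coloured points), with dotted lines at 2-fold. For HHIP the values are lower bounds except with no lower limit. GLI2 is below -1 under each setting drawn except normexp fitted on all spots, where it is above 1. The SUFU probe A_24_P149902 and the HHIP probe fall under 2-fold with 3 of the background settings. Those 3 keep or add brightness on both arrays, which shrinks ratios of dim probes.

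To place GLI2 among the rest of the pathway, 68 further genes in 6 roles were read. Of these, 67 were on the array by name with 115 probes, and 95 probes of 56 genes passed the background criterion on at least 1 array. Of the 95, 2 were at least 2-fold higher in eSAS and 1 lower, beside 2.08% and 1.96% of all probes, and the median over the 94 probes detected on both arrays was -0.065. The probes that were higher were that of HHAT and 1 of the probes of PDE4C, a phosphodiesterase that degrades cyclic AMP, the messenger that keeps the pathway off. The PDE4C probe A_24_P139120 had 24.7 in SAS and 50.9 in eSAS (log2 1.10), while the other probes of the gene gave 0.15 and 0.01. It was under 2-fold without background correction (0.49) and with the 2 normexp settings without marked local backgrounds (0.30 and 0.35). The probe that was lower was that of FOXF1, a forkhead factor induced by Hedgehog in mesenchyme, with 53.8 in SAS and 24.6 in eSAS (log2 -1.07, 2.11-fold lower). It too was under 2-fold in those 3 settings (-0.40, -0.39 and -0.34), and with normexp fitted on all spots it turned to 2.35. Those 3 settings shrink the ratios of dim probes such as those of PDE4C and FOXF1, so that they cannot decide either difference.

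Of 18 listed target genes, 13 had probes that both arrays detected, and the median log2 ratio of these 18 probes was -0.020, beside -0.0023 over all probes. The probes of CCND2, the cell cycle regulator cyclin D2, came closest to the 2-fold line on the lower side after FOXF1 and are named after their values were seen. Its 3 probes had 2359, 6964 and 12757 in SAS and 1201, 3765 and 7013 in eSAS, log2 ratios of -0.92, -0.83 and -0.81. CCND1 (cyclin D1) had ratios from 0.15 to 0.33. Neither GLI1 nor PTCH1, the target genes used most widely, could be measured with the probes that carry their names.

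Most co-receptors and binding proteins gave no signal above background. BOC and GAS1, which present ligand to Patched, LRP2 and GPC3 had no probe well above background on either array, nor had SCUBE2, which helps to release the ligand. The co-receptor CDON had 1 probe above background, with 31.7 in SAS and 28.9 in eSAS (log2 -0.08). The 26 detected genes of signal transduction and GLI control (50 probes) had a median of -0.033, and the 12 genes of the primary cilium (21 probes on both arrays) a median of -0.12, between -0.37 and 0.64.

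**Figure D4:**
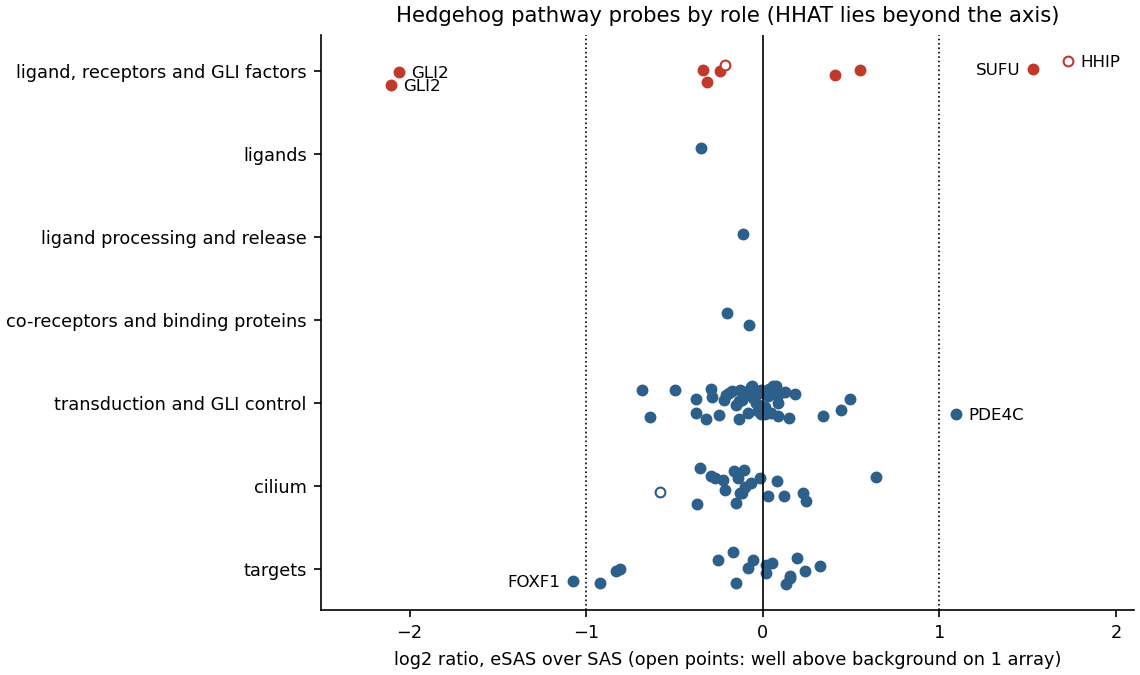
Log2 ratio (eSAS over SAS) of each probe that at least 1 array detected above background, in the 9 genes (red) and in 6 roles of the wider pathway (blue), with the vertical position within a role drawn at random. Open points are probes well above background on 1 array only, dotted lines mark 2-fold, and HHAT (282-fold higher on a marked spot) is off the axis. GLI2 lies lower than each other probe drawn.

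GLI2 and FOXF1 are also expressed by fibroblasts and other mesenchymal cells, so markers of cells other than squamous epithelium were read beside them. Of 10 probes of 7 such genes, 3 (COL1A1, a fibroblast collagen, CDH5, an endothelial cadherin, and DES, the muscle filament desmin) passed the background criterion in SAS and 0 in eSAS. Their signals, averaged over the spots of a probe, ranged from 2.58 to 29.0 in SAS and from 3.32 to 11.1 in eSAS. The gene means summed to 91.0 and 46.2. The leukocyte markers PTPRC and CD3E, the endothelial marker PECAM1 and the collagen gene COL1A2 passed the criterion on neither array. A probe printed several times passed where more than 50% of its spots did. Of the 10 spots of 1 COL1A2 probe, 3 were well above background in SAS, with signals up to 85.7, and 0 in eSAS. Since few of these signals passed the criterion, the sums are mostly of values below detection, and no order is read from them. Their part in the GLI2 and FOXF1 ratios was not tested.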

How the data were processed

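The authors deposited, for each array, the Agilent Feature Extraction 10.7.3.1 output with linear intensity values: the processed signal (background subtracted and spatially detrended, not scaled between arrays), its error, mean and median pixels, local background and spot marks. Their series table equalled the processed signal for every spot. Here each processed signal was divided by its array's 75th percentile and converted to log2, control spots were dropped, and repeated spots of a probe were averaged. A probe with repeated spots counted as well above background where more than 50% of them were. For a probe well above background on 1 array only, the dim side was replaced by that array's lowest signal well above background (12.8 for SAS, 15.2 for eSAS) unless its own signal was higher, which gives a bound. All 9 genes were named, and of the wider list HHAT and genes at least 2-fold apart. The other genes named were picked, after their values were seen, as examples of their role. The genes and lists were chosen with earlier results of these data known. Alternatives were other scalings, background corrections (limma 3.58.1 in R 4.3.3), filters, no lower limit, local centring on the 20 nearest spots and gene averages. Some results for single genes of the wider list are not reported here. Counting was tested on simulated data. The number of arrays limits the precision. Probe positions are in hg18, as printed in the array's own annotation, with no exon assigned.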

Additional observations from a re-analysis of the deposited data

How the results depend on the processing

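No paired analysis was possible because SAS and eSAS had a single array each. Of the 10 probes that passed the background criterion on at least 1 array, 4 were at least 2-fold apart. This count was 7 with normexp fitted on all spots, 2 with normexp without marked local backgrounds, 2 without background correction and 2 with median pixels. It was 2 of 7 genes with probes averaged per gene, and 3 of 8 probes when both arrays had to pass. Of all probes that passed on both, 97.6% lay within 2-fold. The first setting moved the median of all probes to 0.53, and the next 3 shrink ratios of dim probes. No share over the whole array is given for the first 4 settings or for gene averages. None is given with no filter on dim probes or with marked spots left out. Counts under all of these, here and in the wider list, are not read as a trait of these genes. In the wider list, with alternatives chosen after seeing the data, 3 probes were apart, and 34, 0, 1 and 0 under the first 4 of these settings, 5 with no filter on dim probes and 2 with marked spots left out. Both counts of 0 are over 94 probes in place of 95, since the HHAT spot was left out there. The median of the detected probes, -0.28, was -0.14 without background correction and -0.13 with median pixels. It turned to 1.63 with normexp on all spots, 0.026 with no filter on dim probes and 0.32 with gene averages. With normexp on all spots GLI2 turned to 1.31 and 1.01, the SUFU probes A_24_P149893 and A_23_P425304 to 2.27 and 1.95, and FOXF1 to 2.35. HHAT, whose own spot has a marked local background, fell from 8.14 to -0.11. That fit differed from normexp without marked local backgrounds only in 26 spots. With these left out the median of all probes was -0.0077. How these spots move the fit was not tested. Outside normexp on all spots GLI2 ranged from -2.16 to -1.23. Signal over background limits SHH, PTCH1, GLI1 and HHIP, which were near or below the detection limit on at least 1 array.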
